A study of Mus musculus with 6 samples.

Results

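The genes described here are the 208 protein-coding genes that span at least 300 kb of the mouse genome from annotated start to annotated stop and that carried an average normalized count of 20 or higher across the 6 libraries of the series. They were selected on their span, on that mean and by name. Of 21269 genes in the table, 14262 were protein-coding, 340 of those spanned 300 kb or more, and 240 of these reached the mean of 20. Of the 240, 32 were left out by name because they belong to families treated as groups of their own, such as ion channels, phosphodiesterases, collagens, Dock proteins and solute carriers, and Ryr2 and Dmd are among them. The RNA came from HL-1 cells, an established mouse line of atrial cardiomyocyte origin that still contracts in culture. Seeding took place 24 hours before transfection, the gapmers were used at 50 nM, and cells were collected 48 hours later. Gapmers are short strands of DNA, stabilized here at both ends by locked nucleic acid (LNA), that bind a matching RNA and have it cut by RNase H. LNA Control, 3 libraries, received a control gapmer, and LNA Malat1, 3 libraries, received a gapmer against the long noncoding RNA Malat1, so the control cells carried a gapmer too. All 6 libraries come from the same cell line, and the labels do not say whether the replicates were separate cultures, so the p-values measure the spread between these samples, which may be technical.

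A gene of this size is almost entirely intron. RNA polymerase II moves along it for a long time before it reaches the end, very long introns have to be spliced out of the transcript, and topoisomerases and elongation factors are known to matter more for such genes than for short ones. Long genes often encode cell adhesion molecules, scaffolds of the cytoskeleton, signalling enzymes and regulators of transcription, and many are best known from neurons or muscle. Malat1 is an abundant nuclear RNA found at nuclear speckles, bodies rich in splicing factors, and at active genes.

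In these cells the long genes were mostly lower after Malat1 silencing. Of the 208 genes, 114 (54.8%) were lower in LNA Malat1 and 11 (5.29%) were higher at an adjusted p no higher than 0.05 (limma on log2 of normalized count + 1, two-sided, Benjamini-Hochberg over all 15650 genes tested), and 83 did not pass. Among all genes tested, 14.0% were lower and 14.3% higher, and among the 10704 coding genes that span under 300 kb and reach the same mean, 18.6% were lower and 12.0% higher. With a fold change of at least 1.5 required as well, 50 of the long genes (24.0%) were lower and 5 (2.4%) higher. The shares were 2.92% lower and 8.0% higher among all genes tested and 3.28% lower and 3.97% higher among the shorter coding genes. All of the 5 higher genes but Fras1 had a mean under 20 in LNA Control, so they reached the limit on the mean through LNA Malat1. The median log2 fold change of the long genes was -0.27, with the middle of the distribution between -0.56 and -0.01, beside -0.03 for the shorter coding genes and 0.02 for all genes tested. These are descriptions beside the background, without a test over the group, since the group was chosen with results of these data known. With GC content and exonic length regressed out, 96 of the long genes were lower and 28 higher with a median of -0.18. Of the 10704 shorter coding genes, 18.1% were then lower and 1952 were higher, against 1289 higher without that regression. Without LNA Control replicate 3 there were 109 long genes lower and 23 higher, and 1394 shorter coding genes were higher.

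Malat1 itself, on chromosome 19, had 5051, 5197 and 4369 normalized counts in LNA Control. In LNA Malat1 it had 2833, 2792 and 2732, and fell to 57.2% of the control mean (log2 fold change -0.80, SE 0.0722, adjusted p = 7.5e-06 by limma). The libraries held between 4511731 and 5594487 reads on genes by the factors recovered from the rounding of the values, and the long genes made up 2.42% to 2.57% of the normalized counts in the control libraries and 2.1% to 2.18% in LNA Malat1. The LNA Control libraries differed more among themselves than the LNA Malat1 libraries did, with 1.77 to 4.18 in chi-square per gene against 0.949 to 1.16, where sampling noise alone gives a value near 1. LNA Malat1 replicates 1 and 3 differed by less than the sampling noise over all genes with 20 or more reads (0.949 per gene), though not over the most highly counted genes (1.1 per gene). Replicates 1 and 2 were also near the sampling noise over the former genes (1.01 per gene), and stood at 1.66 over the latter. The fit that counts replicates 1 and 3 as 1 sample called 103 long genes lower and 8 higher. It still treats replicate 2 as a separate sample, which these values do not establish. Of the 12 cardiomyocyte markers looked up, 9 had a mean of 20 or more, led by Ttn and Gata4, Myh6 had a mean of 4, and Nppa and Sln were not analysed here. The 10 cardiomyocyte markers in the table summed to 11563 to 14993 in LNA Control and 17897 to 19134 in LNA Malat1, mostly from Ttn. Of 4 leukocyte markers, Cd68 and Csf1r were in the table, and their sum was 32 to 36 in LNA Control and 54 to 81 in LNA Malat1, while Ptprc and Adgre1 were not analysed here. Fibroblast markers (3 of 6 in the table, mostly Col1a1) summed to 1953 to 2530 and 1824 to 1957, endothelial markers (3 of 5) to 22 to 31 and 36 to 37, and smooth muscle markers (3 of 3, mostly Acta2) to 1211 to 1383 and 1244 to 1353. The part of these differences in the results was not tested. In bulk RNA, fewer cells that express a gene and less RNA of it per cell cannot be told apart.

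The sequence just upstream of a RefSeq start is shown for 3 of the genes with the largest falls and 1 with a large rise, picked after their values were seen, to give examples of start regions with many and with few CG. The RefSeq start lies 163 bases inside the gene as the table annotates it for Pard3 and 25 bases inside for Plcl1. Each is the 250 bases just before the RefSeq start on the plus strand of GRCm38.p6, at chr1:55405696-55405945 for Plcl1, chr8:127063806-127064055 for Pard3, chr7:96170994-96171243 for Tenm4 and chr19:22138796-22139045 for Trpm3, and capitals mark each CG.
Plcl1: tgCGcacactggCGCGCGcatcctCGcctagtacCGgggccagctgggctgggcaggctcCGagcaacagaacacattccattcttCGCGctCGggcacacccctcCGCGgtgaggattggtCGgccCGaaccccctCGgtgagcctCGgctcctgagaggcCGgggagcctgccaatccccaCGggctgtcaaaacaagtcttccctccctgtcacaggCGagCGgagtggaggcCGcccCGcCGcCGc
Pard3: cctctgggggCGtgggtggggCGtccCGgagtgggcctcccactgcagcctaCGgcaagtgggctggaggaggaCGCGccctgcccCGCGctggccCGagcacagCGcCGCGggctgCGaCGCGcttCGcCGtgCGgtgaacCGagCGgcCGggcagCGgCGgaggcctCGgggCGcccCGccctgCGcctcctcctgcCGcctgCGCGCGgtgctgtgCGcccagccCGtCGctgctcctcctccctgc
Tenm4: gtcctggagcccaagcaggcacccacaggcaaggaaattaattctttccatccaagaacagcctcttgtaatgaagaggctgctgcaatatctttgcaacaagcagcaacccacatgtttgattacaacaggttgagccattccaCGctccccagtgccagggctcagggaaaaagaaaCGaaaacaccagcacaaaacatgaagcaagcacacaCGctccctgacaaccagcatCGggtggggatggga
Trpm3: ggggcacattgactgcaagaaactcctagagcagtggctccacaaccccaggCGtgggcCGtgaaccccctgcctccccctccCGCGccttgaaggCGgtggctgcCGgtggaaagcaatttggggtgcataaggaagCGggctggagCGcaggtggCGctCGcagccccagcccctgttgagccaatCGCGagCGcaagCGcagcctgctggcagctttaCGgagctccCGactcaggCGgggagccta

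The Pard3 window held 34 CG, a count that 3.53% of all 32851 RefSeq windows of this length reach, and the Plcl1 window held 24, which 12.0% reach. The Trpm3 window held 17 (reached by 23.5%), and the Tenm4 window held 4 (reached by 62.2%), against a median of 6 over all windows. The table of RefSeq windows used here holds 162 of the 208 genes, and no count over the group was made. Pard3, Tenm4 and Trpm3 each have 2 RefSeq starts, and the counts per gene do not tell which start the cells used.

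The share of coding genes that were lower rose with genomic span well before 300 kb. Among coding genes with a mean of 20 or more, 13.2% of those under 10 kb, 14.9% of those from 10 to 30 kb and 20.7% of those from 30 to 100 kb were lower. The share was 32.8% from 100 to 200 kb and 45.8% from 200 to 300 kb. It was 54.5% from 300 to 500 kb, 56.9% from 500 to 1000 kb and 47.4% at 1000 kb or more, counts that include the 32 genes left out by name. The share that was higher was 8.82% under 10 kb, 13.5% at 10 to 30 kb, 13.6% at 30 to 100 kb and 10.5% at 100 to 200 kb. It was 6.83% at 200 to 300 kb, 5.77% at 300 to 500 kb and 6.15% at 500 to 1000 kb, and none of the 19 genes of 1000 kb or more was higher. The median count was 148 under 10 kb, 266 at 10 to 30 kb and 426 at 30 to 100 kb, and genes with more counts are easier to call. The median log2 fold change did not fall over these bins (-0.04, -0.02 and -0.03). It was -0.08 at 100 to 200 kb, -0.19 at 200 to 300 kb and -0.29 at 300 to 500 kb, then -0.25 and -0.21 in the longer bins. The part of the counts in the shares was not tested.

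**Figure D1:**
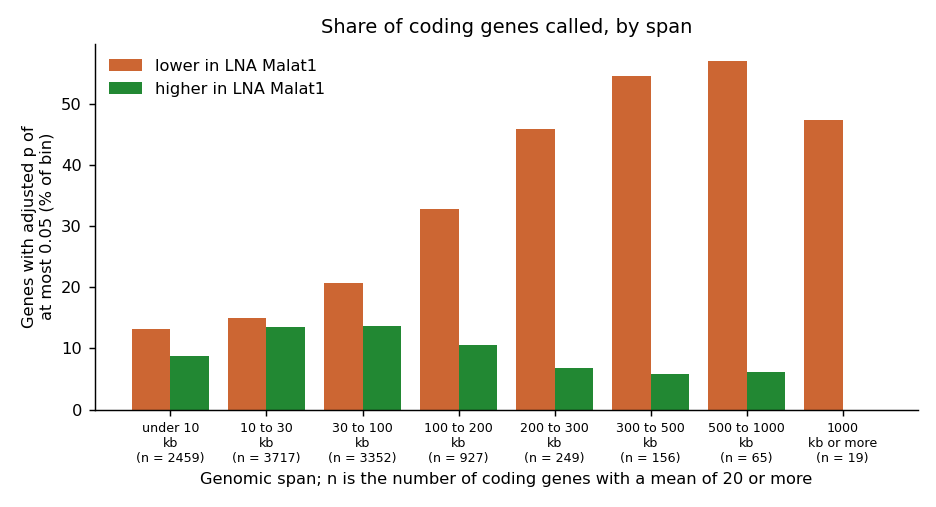
Bars give the percentage of coding genes (mean normalized count of 20 or more) that were lower or higher in LNA Malat1 (adjusted p up to 0.05), in 8 bins of genomic span with the number of genes under each. The lower share climbs from 13.2% under 10 kb to 54.5% at 300 to 500 kb, and the higher share goes from 8.82% under 10 kb up to 13.6% at 30 to 100 kb and down to 5.77% at 300 to 500 kb.

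Every LNA Malat1 library showed the pattern. For each gene, the log2 of normalized count + 1 was set against the mean of the LNA Control libraries, and the median over the 208 genes was -0.30, -0.31 and -0.23 in LNA Malat1 replicates 1, 2 and 3. In LNA Control the same medians were -0.05, -0.01 and 0.05, so the groups did not overlap. Over the 10704 shorter coding genes the medians lay between -0.02 and 0.01 in LNA Control and between -0.04 and -0.03 in LNA Malat1. The groups did not overlap there either, at a much smaller distance. The control libraries also spread with span, with medians of -0.16, 0.03 and 0.13 over the 19 coding genes of 1000 kb or more, where LNA Malat1 stood at -0.30, -0.30 and -0.19. Among the 83 long genes that did not pass, LNA Control replicate 1 stood at -0.12 and replicate 3 at 0.11, wider than the LNA Malat1 libraries at -0.04, -0.03 and 0.03.

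**Figure D2:**
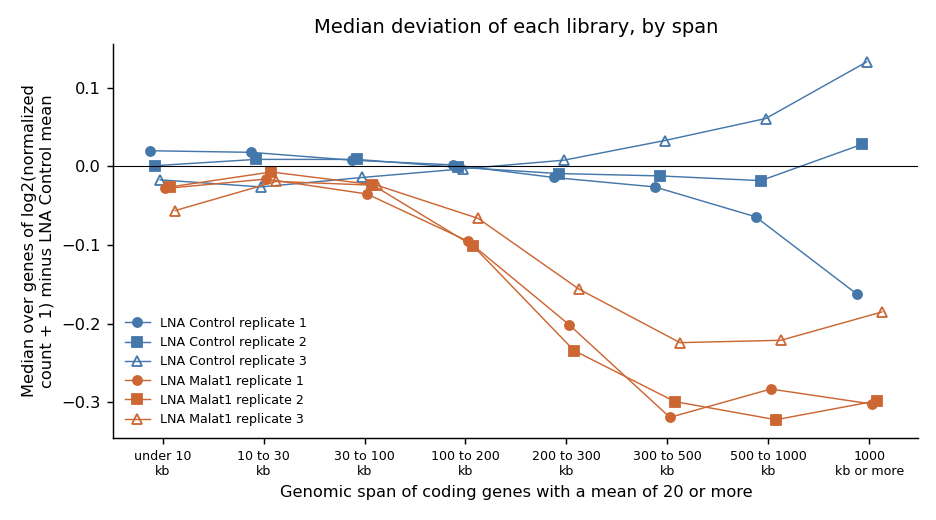
Each point is the median over coding genes, in 1 library and 1 bin of genomic span, of log2(normalized count + 1) minus the LNA Control mean of that gene. The LNA Malat1 libraries lie just below the controls under 10 kb and at 30 to 100 kb, and overlap them at 10 to 30 kb. Their medians fall further from 100 to 200 kb on, to -0.32, -0.30 and -0.22 at 300 to 500 kb. The controls spread from -0.16 to 0.13 at 1000 kb or more.

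Within the 208 genes, span and change were barely related. The median span was 415 kb, from 300.5 kb (Pam) to 2270.7 kb (Ptprd). Spearman's correlation of span with the log2 fold change was -0.02 over the 208 genes and -0.09 over the 10944 coding genes with a mean of 20 or more, a description across genes that share the same libraries. Of the 134 long genes below 500 kb, 74 were lower and 7 higher (median -0.29), of the 58 from 500 to 1000 kb, 33 were lower and 4 higher (median -0.26), and of the 16 of 1000 kb or more, 7 were lower and none higher (median -0.20).

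**Figure D3:**
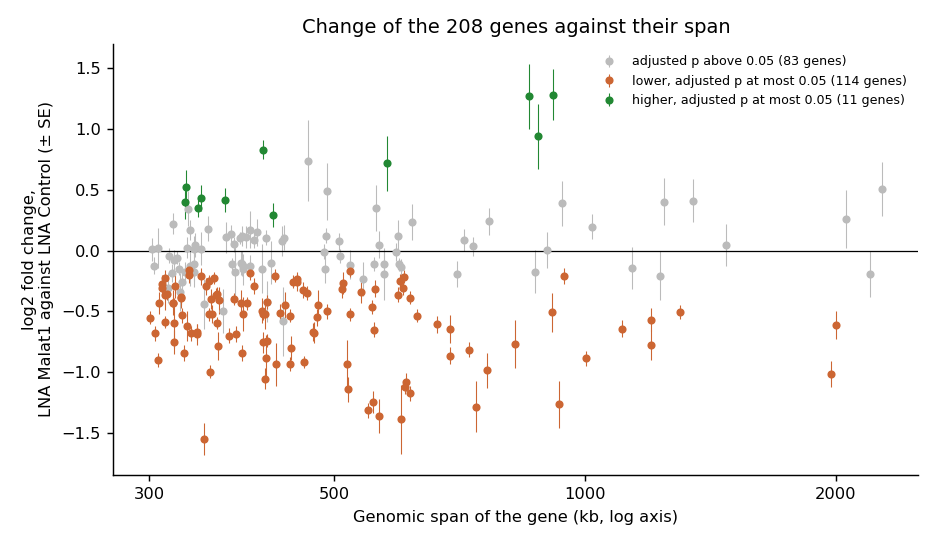
Each point is 1 of the 208 genes, with its genomic span on a log axis and its log2 fold change with the standard error. Lower genes fill the whole range of spans from 300.5 to 1997.7 kb, and the 11 higher genes lie between 330.6 and 914.2 kb.

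The other features of these genes were compared in the same way. Exons made up a median of 2.21% of the span of the long genes, against 19.6% for the shorter coding genes, with median exonic lengths of 10.5 and 4.61 kb and a median GC content of the longest transcript of 47% and 49.7%. The long genes had a larger lower share than shorter coding genes in each of 3 classes of expression level, with 30.4% against 9.03% at means of 20 to under 100, 66.2% against 20.8% at 100 to under 500 and 61.5% against 21.6% at 500 or more. The same held for exonic lengths under 5 kb (61.9% against 16.8%), of 5 to under 10 kb (52.1% against 20.6%) and of 10 kb or more (55.2% against 21.3%). By GC content the shares were 46.7% against 13.9% under 44%, 61.2% against 21.8% from 44% to under 50% and 54.0% against 18.7% at 50% or more. No test was run on these shares.

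Intron size touches how the reads were aligned, because the aligner was set to allow introns of up to 200 kb. An intron longer than that was annotated in 73 of the 208 genes and in 10 of the shorter coding genes. Reads could not be aligned as spliced across such an intron in either group. Whether part of such a read was still placed on an exon is not known. Of these 73 genes, 39 (53.4%) were lower and 6 higher with a median of -0.42, and of the other 135 genes, 75 (55.6%) were lower and 5 higher with a median of -0.26. Other annotated genes lie within the span of 193 of the 208, but in 126 no exonic base is shared with another gene, and of those 75 (59.5%) were lower and 7 higher. In 8 genes more than 10% of the exonic bases lie on another gene on either strand, and 2 of these were lower. Reads on several genes were left out. Whether this took in genes on opposite strands is not known, since strand use in counting is not given.

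Over the 208 genes, all LNA Malat1 values lay below all LNA Control values in 118 (56.7%) and above them in 19 (9.13%). The shares were 20.8% below and 20.5% above among all genes tested, and 27.3% below and 17.5% above among the shorter coding genes. The genes called lower include 112 of the 118, and those called higher 10 of the 19. Of the 114, 89 kept an adjusted p of at most 0.05 in each of the 6 fits that left out 1 library, as did 48 of the 50 that fell by at least 1.5-fold and 5 of the 11 higher genes. In 9 of the 208 genes the mean of 1 group was under 20, so that they reached the overall mean through the other group. Of these, 4 were higher and 3 lower. The 4 higher genes, Adamtsl1, Trpm3, Pcdh9 and Ank2, reached it through LNA Malat1. The 3 lower genes, Hpse2, Tenm4 and Immp2l, reached it through LNA Control. The choice of these genes thus leans on the group in which they were high. Hpse2 (mean 20.2) and Ptprd (22.3) were just inside the limit on the mean, and Epha3 (18.0) and Gpc3 (17.0) just outside. Gpc3, which encodes a cell-surface proteoglycan, had 10, 10 and 6 counts in LNA Control but 24, 22 and 30 in LNA Malat1. Epha3, an ephrin receptor, had 23, 20 and 25 and then 16, 13 and 11. Pam (300.5 kb) and Ranbp17 (302.0 kb) were just inside the limit on span, and AW554918 (298.3 kb) and Klhl29 (298.2 kb) just outside, with log2 fold changes of -0.55, 0.01, -0.19 and -0.71.

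The largest fall was that of Plcl1 (chr1:55405921-55754285), a phospholipase C-like protein without catalytic activity that binds inositol phosphates. It had 112, 122 and 113 normalized counts in LNA Control but 38, 34 and 45 in LNA Malat1, 33.7% of the control mean (log2 fold change -1.55, SE 0.133, adjusted p = 5.1e-06 by limma). The groups stood far apart, and its longest annotated intron is 289 kb. Smyd3 (chr1:178951960-179518041), a lysine methyltransferase, had 101, 114 and 117 and then 48, 44 and 36 (-1.36, SE 0.137, adjusted p = 1.5e-05 by limma). Hpse2 (chr19:42786539-43388355), a heparanase homologue that binds heparan sulfate, had 28, 33 and 27 and then 8, 9 and 16 (-1.39, SE 0.28, adjusted p = 0.0028 by limma), at counts where a few reads move the value. Immp2l (chr12:41024090-41955588), a peptidase of the inner mitochondrial membrane, had 38, 39 and 40 and then 17, 15 and 15 (-1.26, SE 0.194). Hpse2 and Immp2l had means below 20 in LNA Malat1. The control libraries of Immp2l differed by 2 counts at most.

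The cell adhesion and surface receptor genes held several of the best-measured falls. Of 25 such genes, 14 were lower (8 by at least 1.5-fold) and 1, Pcdh9, was higher, with a median of -0.42. For this and every role group below, the shares over all genes tested were 14.0% lower, 2.92% lower by at least 1.5-fold and 14.3% higher. Pard3 (chr8:127063893-127612286), a scaffold of the polarity complex at cell junctions, had 1110, 1204 and 1193 normalized counts in LNA Control but 474, 432 and 504 in LNA Malat1. It fell to 40.2% of control (log2 fold change -1.31, SE 0.0632, adjusted p = 1.3e-07 by limma) with no overlap between the groups. Tenm3 (chr8:48227682-48843951), a teneurin, which is a large transmembrane adhesion protein, had 1688, 1628 and 1567 and then 704, 678 and 784 (-1.17, SE 0.0615, adjusted p = 1.6e-07 by limma). Its relative Tenm4 (chr7:96171246-96911093) had 50, 46 and 39 and then 15, 22 and 17 (-1.29, SE 0.208, adjusted p = 0.00065), at a mean below 20 in LNA Malat1. Another teneurin, Tenm2, had 29, 40 and 29 and then 26, 32 and 26, and its groups overlapped (-0.21, adjusted p = 0.48).

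Other genes of the adhesion and surface receptor list, picked here after their values were seen, show the range. Pard3b, a polarity scaffold that is counted in this list as Pard3 is, fell by 0.89 on the log2 scale. The receptor phosphatase Ptprg fell by 0.87. The semaphorin receptor Plxna4 fell by 0.80, and the immunoglobulin adhesion molecule Cadm1 fell by 0.53. Pcdh7, a protocadherin and the highest of these 25 genes per exonic length (185 normalized counts per kb of exon), had 2095, 2266 and 2382 and then 1629, 1707 and 1688 (-0.42, SE 0.0596, adjusted p = 0.00023), and 21.1% of its exonic bases lie on another annotated gene. The contactins Cntn5 and Cntn6 did not pass, at 0.40 and 0.11.

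The 5 longest genes were split. Ptprd, a receptor tyrosine phosphatase of 2270.7 kb and the longest, had 15, 21 and 19 in LNA Control but 25, 25 and 29 in LNA Malat1 (0.51, SE 0.221, adjusted p = 0.1). Lsamp, an adhesion molecule of 2197.3 kb, had 38, 52 and 66 and then 43, 45 and 45 (-0.19, adjusted p = 0.48), and Lrp1b, an endocytic receptor of 2058.4 kb, had 53, 90 and 131 and then 117, 92 and 101 (0.26, adjusted p = 0.44). For both, the LNA Malat1 values fell within the wide range of the controls. Macrod2, an ADP-ribose hydrolase of 1997.7 kb, had 94, 104 and 98 and then 67, 57 and 69 (-0.61, SE 0.117, adjusted p = 0.0019), and Dlg2, a membrane-associated scaffold of 1972.6 kb, had 118, 127 and 142 and then 63, 65 and 61 (-1.02, SE 0.107, adjusted p = 2.4e-05). Macrod2 and Dlg2 were lower in all LNA Malat1 libraries than in any control. Without LNA Control replicate 3, Lrp1b passed the test as higher, at 0.57 (adjusted p = 0.04).

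Genes of the extracellular space and of glycan synthesis were lower in 9 of 12 cases (4 by at least 1.5-fold), with 1 higher and a median of -0.46. B3galt1 (chr2:67565871-68122689), a galactosyltransferase that builds glycans, had 205, 214 and 234 and then 89, 86 and 98 (log2 fold change -1.25, SE 0.0886, adjusted p = 1.1e-06 by limma). Gmds, which makes a precursor of GDP-fucose, had 193, 175 and 207 and then 78, 84 and 97 (-1.14, SE 0.103, adjusted p = 7.5e-06 by limma). Neither gene overlapped between groups. Fras1 (chr5:96373955-96784728), a protein of basement membranes, went the other way with 418, 321 and 360 and then 651, 636 and 659 (0.83, SE 0.0798, adjusted p = 1.1e-05 by limma), the rise with the lowest adjusted p among the 208. Of the growth-factor homologues that stay inside the cell, Fgf12 had 297, 330 and 351 and then 305, 320 and 345 (-0.01, SE 0.0732), and Fgf13 stood at 0.08 (adjusted p = 0.45).

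Signalling enzymes and their regulators were lower in 16 of 26 cases (4 by at least 1.5-fold) and higher in none, with a median of -0.33. Magi1, a junction scaffold with a guanylate kinase-like domain, had 1005, 985 and 1028 and then 483, 440 and 458 (-1.13, SE 0.0532, adjusted p = 1.3e-07 by limma). Tnik, a protein kinase, had 232, 243 and 278 and then 116, 117 and 127 (-1.05, SE 0.0852, adjusted p = 3.1e-06 by limma). They stood at 45.8% and 47.8% of the control mean, with no overlap. Among the protein kinases known from the heart, picked after their values were seen, Prkca fell by 0.52, Prkce by 0.50 and Prkg1 by 0.57. Iqsec1, an exchange factor for Arf GTPases, had 1285, 1030 and 994 and then 1158, 1031 and 1158 (0.02, SE 0.0866), within the spread of the controls.

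RNA-binding proteins were the smallest group, with 5 of 7 lower (3 by at least 1.5-fold), none higher and a median of -0.51. Fto, an RNA demethylase, had 697, 673 and 661 and then 349, 324 and 342, a fall to 50.0% of the control mean (adjusted p = 2.1e-07 by limma). Snd1, a nuclease-domain protein of RNA-protein complexes, had 1074, 1060 and 988 and then 544, 556 and 551 (-0.92, SE 0.0519, adjusted p = 2.4e-07 by limma). In each the replicates of a group differed by far less than the groups did. Rsrc1, a splicing-related protein, and Dis3l2, an exoribonuclease, stood at -0.11 and 0.01 and did not pass.

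Chromatin and DNA maintenance genes were lower in 9 of 12 cases (4 by at least 1.5-fold) and higher in none, with a median of -0.45. Besides Smyd3, Arid1b, a subunit of the SWI/SNF chromatin remodelling complex, had 1675, 1580 and 1522 and then 1075, 1086 and 1154 (-0.53, SE 0.0558, adjusted p = 2.5e-05 by limma). The DNA repair gene Rad51b fell by 0.94 and Pola1, the catalytic subunit of DNA polymerase alpha, fell by 0.39, both picked after their values were seen.

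Of the transcription factors, 10 of 28 were lower (6 by at least 1.5-fold) and 1 was higher, with a median of -0.18. Nfib had 3315, 3261 and 3258 and then 1919, 1957 and 1995 (-0.74, SE 0.0533, adjusted p = 1.1e-06 by limma), and the forkhead factor Foxn3 had 361, 367 and 402 and then 232, 228 and 232 (-0.70, SE 0.0623, adjusted p = 6.5e-06 by limma). The related Nfia had 1599, 1370 and 1347 and then 1252, 1174 and 1293, a smaller fall (-0.21, SE 0.0692, adjusted p = 0.038) that was called in 1 of the 6 fits without 1 library and not with GC content and exonic length regressed out (-0.14, adjusted p = 0.12). Zbtb20, a zinc finger repressor with 208 normalized counts per kb of exon, had 4767, 5998 and 6958 and then 6938, 6744 and 7027 (0.24, SE 0.112, adjusted p = 0.13). Its values overlapped because LNA Control replicate 3 was as high as the LNA Malat1 libraries, and without that library it passed as higher (0.37, adjusted p = 0.0028). Rora, a nuclear receptor, had 236, 256 and 298 and then 270, 268 and 267 (0.03). Tcf4 was the factor that rose, from 173, 201 and 250 to 265, 275 and 293 (0.43, SE 0.108, adjusted p = 0.011), and 2 of the 6 fits without 1 library did not call it.

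Metabolic and mitochondrial enzymes were lower in 7 of 11 cases (3 by at least 1.5-fold) and higher in none, with a median of -0.50. Fars2, the mitochondrial phenylalanyl-tRNA synthetase, had 228, 248 and 250 and then 111, 118 and 112 (-1.08, SE 0.0761, adjusted p = 1e-06 by limma). Aopep, an aminopeptidase, had 727, 750 and 708 and then 487, 468 and 486 (-0.60, SE 0.051, adjusted p = 4.9e-06 by limma), and Pam, which amidates peptides, had 779, 739 and 731 and then 495, 518 and 520 (-0.55, SE 0.052). The replicates lay within narrow bands in all of them. Oxr1, a protein of oxidation resistance and the highest of the 208 genes per exonic length (217 normalized counts per kb), had 1365, 1555 and 1553 and then 1584, 1624 and 1596 (0.11, adjusted p = 0.21).

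Ubiquitin and protein turnover genes were lower in 7 of 10 cases (4 by at least 1.5-fold), with 1 higher and a median of -0.37. Fbxl17, an F-box protein of ubiquitin ligases, had 669, 606 and 613 and then 334, 314 and 336 (-0.94, SE 0.0588, adjusted p = 4.6e-07 by limma). Nedd4l, a ubiquitin ligase known for turning over membrane channels, had 463, 469 and 444 and then 277, 238 and 252 (-0.84, SE 0.0657, adjusted p = 2.3e-06 by limma). The gene of this list that rose, Adamtsl1 (chr4:85514172-86428385), encodes a secreted relative of the ADAMTS proteases that lacks the protease domain. It had 18, 21 and 16 and then 53, 37 and 49 (1.28, SE 0.207, adjusted p = 0.00063), the largest rise of the 208 genes, at a mean below 20 in LNA Control.

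Membrane traffic and lipid handling genes were lower in 12 of 22 cases (7 by at least 1.5-fold) and higher in 3, with a median of -0.25. The higher share, 13.6%, was near the 14.3% of all genes tested. Sbf2, a myotubularin-related protein of endosomes, had 480, 482 and 528 and then 258, 276 and 262 (-0.90, SE 0.0606, adjusted p = 7.3e-07 by limma), and Exoc4, a subunit of the exocyst, had 829, 936 and 979 and then 500, 534 and 521 (-0.81, SE 0.0642, adjusted p = 2.5e-06 by limma). Neither overlapped between groups. Trpm3 (chr19:22139046-22995410), a cation channel that this list holds, had 13, 11 and 24 and then 38, 35 and 41 (1.27, SE 0.269, adjusted p = 0.0038). Its mean in LNA Control was below 20. Synpr, a protein of synaptic vesicles, had 42, 45 and 47 and then 61, 64 and 69 (0.52, SE 0.135, adjusted p = 0.012), and 1 of the 6 fits without 1 library did not call it.

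Cytoskeleton and scaffold genes were the largest group, with 17 of 40 lower (4 by at least 1.5-fold), 4 higher and a median of -0.17. The higher share, 10.0%, was below the 14.3% of all genes tested and the 12.0% of shorter coding genes. Mcc, a regulator of cell migration, had 585, 520 and 510 and then 293, 292 and 311 (-0.85, SE 0.0642, adjusted p = 1.9e-06 by limma). Tln2, a talin that links integrins to actin, had 399, 414 and 379 and then 236, 262 and 250 (-0.67, SE 0.0635, adjusted p = 1e-05 by limma). Macf1, a linker of microtubules and actin with 187 normalized counts per kb of exon, had 5983, 6421 and 6446 and then 5516, 5496 and 5388, a small fall near the threshold (-0.20, SE 0.0675, adjusted p = 0.043) that was called in 2 of the 6 fits without 1 library and not with GC content and exonic length regressed out (-0.05, adjusted p = 0.42). Its large relative Dst had 4867, 5003 and 5002 and then 5374, 5191 and 5188 (0.08, adjusted p = 0.35), and passed as higher under that correction (0.24, adjusted p = 0.00066). Diaph3, a formin, had 776, 872 and 885 and then 823, 862 and 829 (-0.01, SE 0.0591).

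Several long genes encode proteins of the muscle cell. Among those named here, which are not a full list, falls passed, and so did a rise from few counts. Fhod3, a formin of the cardiac sarcomere with 179 normalized counts per kb of exon, had 1381, 1442 and 1346 and then 1209, 1223 and 1179 (-0.21, SE 0.0511, adjusted p = 0.0096), but did not pass with GC content and exonic length regressed out (-0.12, adjusted p = 0.095). Nebl, which encodes the Z-disc protein nebulette, had 1182, 1456 and 1580 and then 1487, 1545 and 1519 (0.12, adjusted p = 0.32), and Trdn, triadin of the calcium release complex, had 507, 748 and 929 and then 784, 792 and 810 (0.17, adjusted p = 0.43). In both, LNA Control replicate 1 was the lowest library and replicate 3 the highest. Ank3, an ankyrin that anchors membrane proteins, had 1742, 1645 and 1696 and then 1151, 1145 and 1206 (-0.54, SE 0.0516, adjusted p = 1.1e-05 by limma). Ank2, the related ankyrin-B, had 17, 16 and 20 and then 36, 30 and 24 (0.72, SE 0.225, adjusted p = 0.031) at 0.681 normalized counts per kb of exon. Its mean in LNA Control was below 20. The rise of Ank2 was not called in 3 of the 6 fits without 1 library, and Nebl, Trdn and Ank3 were picked after their values were seen.

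Other rises were small or rested on few counts. Pcdh9, a protocadherin, had 11, 16 and 19 and then 33, 36 and 22 (0.94, SE 0.268, adjusted p = 0.02), and 2 of the 6 fits without 1 library did not call it. Its mean in LNA Control was below 20. Myo5b, a myosin motor, Hydin, a protein of motile cilia, and Shank2, a scaffold of synapses, rose by 0.40, 0.35 and 0.29 on the log2 scale. Myo5b and Shank2 were each called in 1 of the 6 fits without 1 library, and Hydin in all of them.

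**Figure D4:**
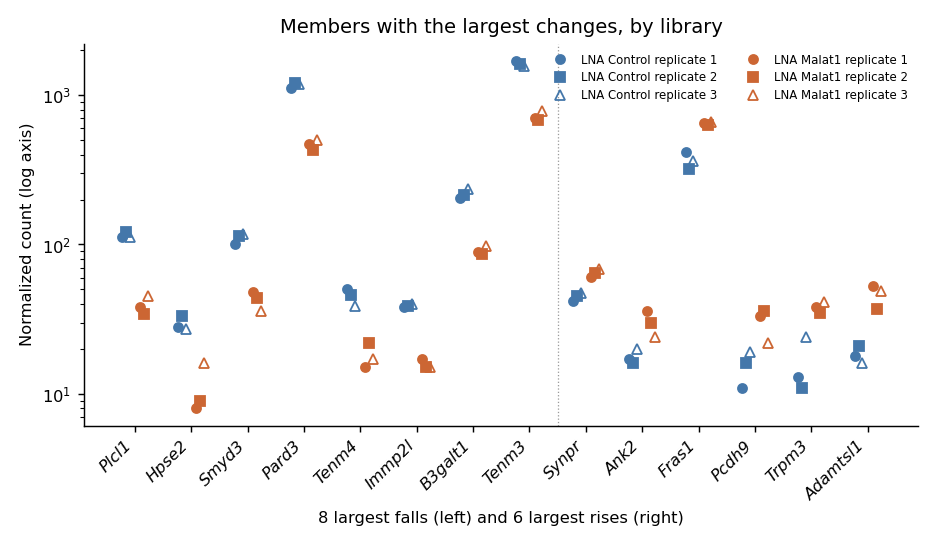
Normalized counts (log axis) of the 8 genes with the largest falls and the 6 with the largest rises among those at an adjusted p of at most 0.05, with 1 point per library. The groups do not overlap in any of the 14 genes, Pard3 goes from between 1110 and 1204 to between 432 and 504, and 4 of the 6 rises start from control values of 24 or less.

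Of the 15 genes with other or poorly described roles, 8 were lower (3 by at least 1.5-fold) and none was higher, with a median of -0.35. Cmss1 had 333, 377 and 340 and then 221, 215 and 216 (-0.68, SE 0.0654, adjusted p = 1.1e-05 by limma), and Apbb2, an adaptor that binds the amyloid precursor protein, had 886, 850 and 870 and then 660, 622 and 645 (-0.43, SE 0.0502, adjusted p = 5e-05 by limma). Ranbp17, an importin relative, had 149, 131 and 159 and then 138, 148 and 155 (0.01, SE 0.0922). Dnah7b, listed with the cytoskeleton (0.02, adjusted p = 0.95), has close copies in the genome, and its count is uncertain because reads that align to several regions were left out.

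**Figure D5:**
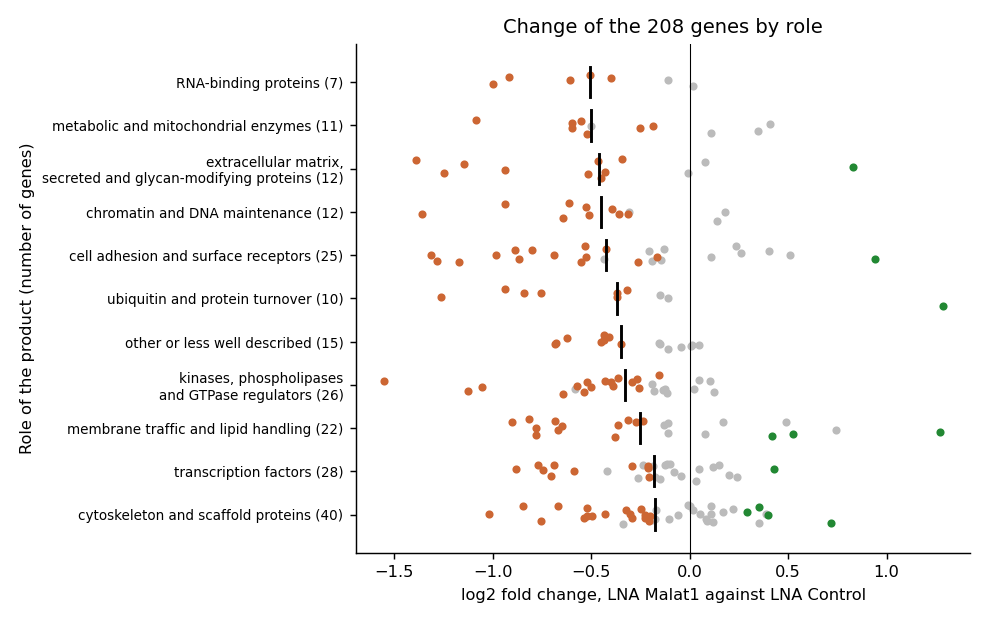
Each point is the log2 fold change of 1 of the 208 genes, grouped by the role of its product. Black bars are medians, orange points were lower and green points higher (adjusted p up to 0.05), and grey points did not pass. All 11 medians lie below 0, from -0.51 for RNA-binding proteins to -0.17 for cytoskeleton and scaffold proteins.

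The 11 medians were below 0 in each of the 19 alternative fits as well. With GC content and exonic length regressed out, the median was -0.03 for cytoskeleton and scaffold genes, -0.06 for transcription factors, -0.12 for membrane traffic and lipid handling and -0.20 for signalling enzymes, closer to 0 than in the fit without that correction. Besides Dst, the genes Oxr1, Nebl, Zbtb20 and Ptprd passed as higher under it, at adjusted p-values of 0.022, 0.027, 0.0013 and 0.041 (limma).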

How the data were processed

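RNA from 3 LNA Control and 3 LNA Malat1 samples of HL-1 cells was sequenced. Per the paper's methods, the authors used Trimmomatic 0.39 for trimming and STAR 2.7.7a for alignment to mm10 (introns up to 200 kb), counted reads on exons with featureCounts 1.6.5 and normalized them with DESeq2 1.30.0. Reads on several genes or regions were left out, and use of strand in counting is not given in the sources used here. What the authors deposited is best treated as a score, since each read count was divided by a library factor and then rounded. Span is stop minus start in that table. Genes with a mean of at least 5 were tested with limma 3.58.1 (R 4.3.3) after taking log2(normalized count + 1), with an intensity trend, so fold changes of low genes are understated. Exonic length, introns and GC content came from GENCODE M21 (GRCm38), which holds all 208 genes, 204 at the same coordinates. The members, role lists and tests were chosen with earlier results of these data known, and 50 members were given a role by name after the files were opened. Named genes are the 8 largest falls and 6 largest rises that passed, the 5 longest, the 5 highest per exonic kb, the 4 smallest changes at a mean of 200 or more, those nearest the limits, and the 2 with the lowest adjusted p per role. Some members are counted in the groups but are not reported here by name. Alternatives were a replicate block, pseudocounts of 0.1 and 5, other scalings and filters, LNA Malat1 replicates 1 and 3 as 1 sample, GC and length regression, voom on recovered reads, other limits on span and fold, and leaving out each library.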

Additional observations from a re-analysis of the deposited data

How the results depend on the processing

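With a replicate block, 115 of the 208 genes were lower and 11 higher, with a median log2 fold change of -0.27. Deviations from the group means were weakly related between same-numbered libraries (correlations of 0.083, 0.0858 and 0.182 over 10490 genes), so the numbers do not establish pairs, although each library correlated best with its own number. The lower calls ranged from 95 to 120 when 1 library was left out, the higher calls from 7 to 23, the 1.5-fold lower calls from 47 to 52, the 1.5-fold higher calls from 3 to 8 and the median from -0.32 to -0.25. The 23 and the 8 came without LNA Control replicate 3.

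With GC content and exonic length regressed out, 28 were higher with a median of -0.18, and with the replicate block added, 30 were higher with a median of -0.18. The shorter coding genes called higher also rose, from 1289 of 10704 in the main fit to 1952 and 2080. The 1.5-fold higher calls were 3 under quantile normalization. A mean of at least 50 left 181 of the genes, with 7 higher and 1 of them by 1.5-fold. A fold change of at least 2 left 13 lower and 2 higher. A span of at least 200 kb gave 221 lower of 443 genes and one of at least 500 kb gave 40 of 74. Scaling on coding genes under 30 kb, chosen after seeing the data, gave 104 lower and 11 higher. The cause of these shifts was not tested, beyond the fewer or more genes counted at other limits. Of the 48 members named by the rule, 38 passed in the main fit. Of these, 5 (Macf1, Fhod3, Ank2, Pcdh9 and Synpr) lost a call in at least 1 of 19 alternative fits, and no called change turned its direction. Many were named for a large change or a low adjusted p, so they do not stand for all called members. Over all called members, 89 of the 114 lower and 5 of the 11 higher kept their call in each of the 6 fits without 1 library. All scalings moved the median of all genes by under 0.1. Low counts limit most of the rises.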

Other observations

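The 32 long coding genes left out by name gave similar values to the 208, with 17 lower (53.1%), 2 higher and a median log2 fold change of -0.30. Below a mean of 20, 35 coding genes of 300 kb or more could still be tested, and of these 3 (8.57%) were lower and 7 (20%) higher, with a median of 0.30. The share for shorter coding genes below a mean of 20 was not computed. At means of 20 to under 100, a higher class of expression, 9.03% of shorter coding genes were lower and 17.9% higher. In that class 30.4% of the long genes were lower and 10.7% higher. Noncoding genes of 300 kb or more with a mean of 20 numbered 5, and none was lower. Mir100hg, the host gene of a microRNA cluster, had 1072, 1063 and 1359 normalized counts in LNA Control but 1512, 1394 and 1511 in LNA Malat1 (0.35, SE 0.084, adjusted p = 0.0086 by limma). Gm26691, an antisense transcript, rose by 0.40 (adjusted p = 0.036 by limma), while Pvt1, Mir99ahg and Morrbid did not pass, at 0.11, 0.22 and -0.24.

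Of 28 genes for topoisomerases, elongation factors and RNA-binding proteins linked to transcription of long genes, 1 (3.57%) was lower and 5 (17.9%) higher, beside 14.0% and 14.3% of all genes tested, with a median of 0.03. The histone chaperone Supt6, which travels with RNA polymerase II, had 1290, 1328 and 1220 in LNA Control but 848, 815 and 768 in LNA Malat1 (-0.66, SE 0.0563, adjusted p = 5.1e-06 by limma). Ell2, Leo1, Ccnt1, Top2b and Pcf11 rose by 0.38, 0.31, 0.27, 0.22 and 0.20 on the log2 scale (limma). Top1 stood at 0.02 (adjusted p = 0.78), Sfpq at -0.01 (adjusted p = 0.94) and Hnrnpu at 0.09 (adjusted p = 0.3).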
